A study of Danio rerio with 17 samples.

Results

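The integrin and laminin genes of the zebrafish genome were followed across 5 epidermal cell populations. Members were the gene identifiers whose ZFIN symbol in the deposited tables begins as an integrin alpha, integrin beta or laminin chain does, without the integrin-binding protein genes named itgb1bp. This gave 46 of 35117 identifiers, made up of 21 integrin alpha, 12 integrin beta and 13 laminin genes. Fluorescent cells of adult epidermis were picked into lysis buffer, their RNA was amplified by the SMART-seq2 protocol (full-length complementary DNA from very few cells), and 17 libraries were sequenced. MLCs (4 libraries) and cLCs (4 libraries) came from fish of 1 line that joins the construct hsp70:mCherry-T2a-CreERT2, driven by a heat-shock promoter, to the reporter mpeg1:loxP-DsRedx-loxP-GFP, driven by the mpeg1 promoter of mononuclear phagocytes. The labels do not spell out either abbreviation, and the series text lists locally restricted mpeg1+ cells beside cLCs. Keratinocytes (3 libraries) were taken from Tg(krt4:lyn-GFP), neutrophils (3 libraries) from Tg(lyz:GFP) and T cells (3 libraries) from Tg(lck:DsRedx). The lines of keratinocytes, neutrophils and T cells each mark their cells by 1 promoter. The line differs between groups along with the cell type, except between MLCs and cLCs, which share it. The number of cells picked for a library is not given in the sources used here, and fewer cells with RNA of a gene cannot be told apart from less of that RNA per cell. The series text assigns replicates to independent experiments, without saying which fish they came from.

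Integrins are receptors made of 1 alpha and 1 beta chain that hold cells to the extracellular matrix and to each other, and the pair decides the ligand. In mammals, beta 2 pairs with alpha M and its relatives on leukocytes, beta 7 pairs with alpha E or alpha 4, the alpha V chain pairs with beta 5, beta 6 and others to bind matrix proteins that carry an RGD motif, and alpha 6 with beta 4 ties basal keratinocytes to the basement membrane in hemidesmosomes. Laminins are basement membrane proteins built of an alpha, a beta and a gamma chain, and are the ligands of the alpha 3 and alpha 6 integrins.

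Libraries held 5837662 to 24596883 counts and between 4484 and 16921 genes with a count. The 4 libraries with fewer than 6000 genes were cLCs 3 and 4 and neutrophils 2 and 3. The marker lists went with the labels for neutrophils, T cells and keratinocytes, where the summed TPM of the group's own list was 9860.4 to 24652 in neutrophils, 1154 to 1282 in T cells and 14249 to 61498 in keratinocytes. Outside their own groups, the T cell list reached 919.7 TPM in cLCs, where cd4-1 made up most of it (226 to 919 TPM) and lck had at most 13.5 TPM and zap70 0, and the neutrophil list reached 322 TPM in T cells 1 (lyz 78.6, mpx 90.2 and npsn 153 TPM) and was at 0 in T cells 2 and 3. MLCs held both mpeg1.1 (467 to 869 TPM) and RNA of the keratinocyte list (2259 to 4419.9 TPM summed over 5 genes). In cLCs that list summed to 0.989 to 56.5 TPM. In MLCs epcam had 906 to 3665 TPM, cdh1 232 to 449, krt5 102 to 960 and krt4 14.9 to 269 TPM. Keratinocytes had 2413 to 16867 TPM of krt5 and 5254 to 31581 TPM of krt4. Of the other phagocyte markers, MLCs had 0 TPM of csf1ra, at most 0.252 TPM of c1qa and at most 33.7 TPM of marco. In cLCs these had 19.7 to 79.9, 467 to 1286 and 458 to 2805 TPM. In MLCs ptprc, a gene of nearly all leukocytes, averaged 0.0333 ± 0.0665 TPM, against 178 ± 72.0 TPM in cLCs (SD, n = 4 each). In the keratinocyte libraries krt4 and krt5 were abundant, but krtt1c19e, a gene of basal keratinocytes in zebrafish, had 0 counts in all 3.

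Most of the family was low or seen in few libraries. Of the 46 members, 4 had 0 counts in every library (itga11a, itga2.1, lama2 and itga6l), and another 23 had a count somewhere but reached 1 TPM (the unit of the deposited levels, scaled for gene length and library total) in 1 library at most. The other 19 reached 1 TPM in at least 2 libraries, and 12 of them, 6 alpha and 6 beta genes, reached 10 TPM in at least 2. No laminin did so, and lamc1 alone among the laminins reached 10 TPM in any library.

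**Figure D1:**
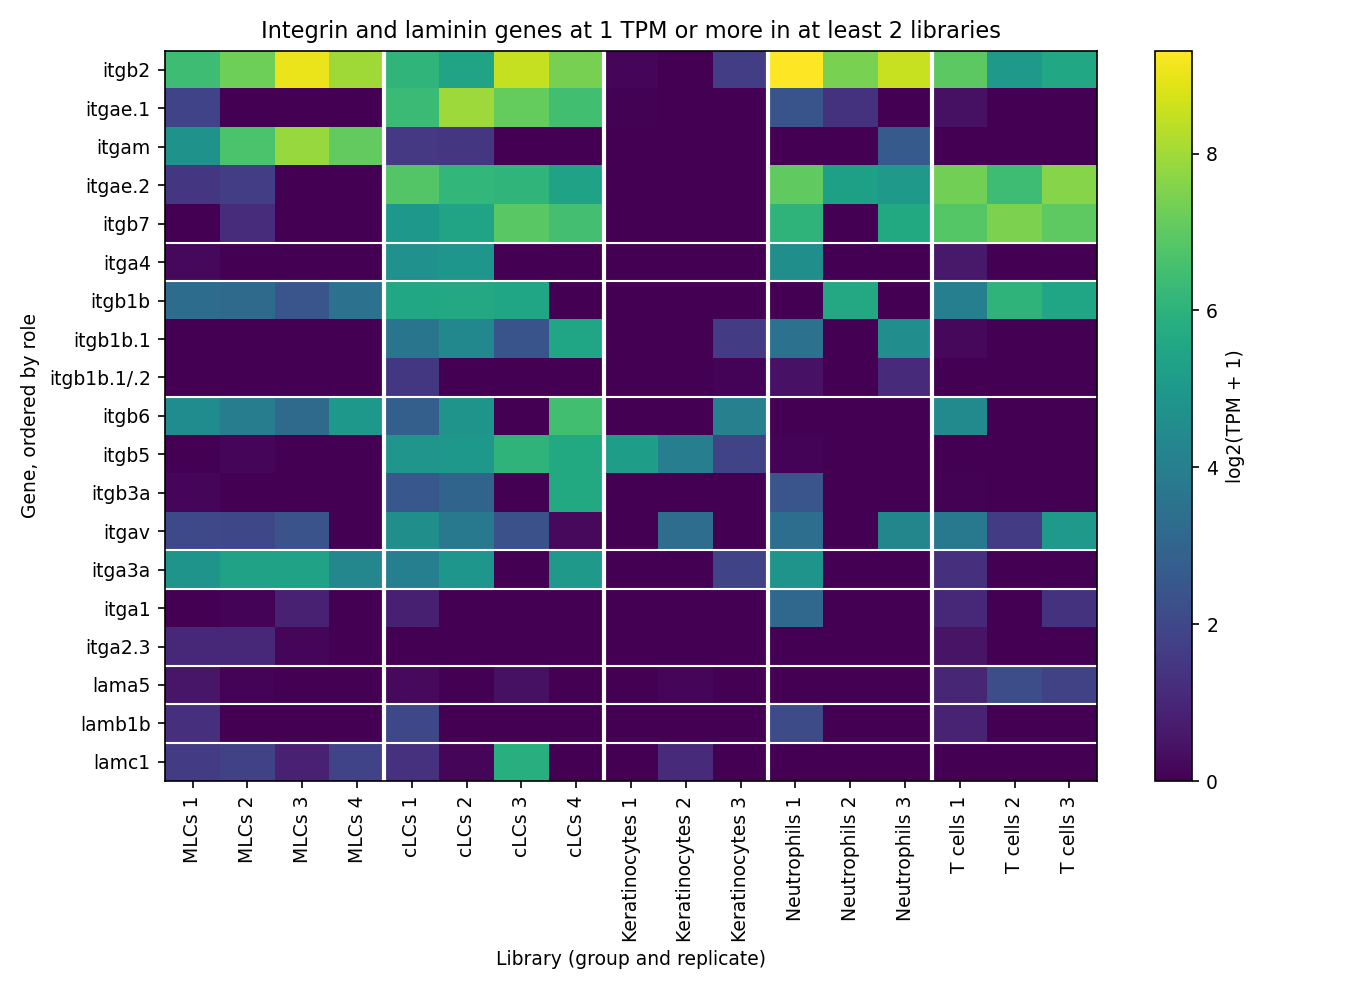
Level of the 19 integrin and laminin genes at 1 TPM or more in at least 2 libraries (rows, ordered by role) in each of the 17 libraries (columns, by group), as a colour scale of log2(TPM + 1). itgb2 is bright in every MLC, cLC, neutrophil and T cell column, while the 3 keratinocyte columns and the laminin rows are nearly empty.

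At 1 TPM or more in every library of a group stood 5 members in MLCs (itga3a, itgam, itgb1b, itgb2 and itgb6), 6 in cLCs (itgae.1, itgae.2, itgb1b.1, itgb2, itgb5 and itgb7), 1 in keratinocytes (itgb5), 2 in neutrophils (itgae.2 and itgb2) and 5 in T cells (itgae.2, itgav, itgb1b, itgb2 and itgb7). The same held for 15.2% of all identifiers in MLCs, 5.74% in cLCs, 14.2% in keratinocytes, 6.02% in neutrophils and 18.7% in T cells. The members' own share was 10.87% in MLCs, 13.04% in cLCs, 2.17% in keratinocytes, 4.35% in neutrophils and 10.87% in T cells, so it was above the share over all identifiers in cLCs and below it in the other 4 groups, with no test. The summed TPM of all members was 450.4 ± 269 in MLCs, 651 ± 152 in cLCs (SD, n = 4 each), 29.2 ± 5.09 in keratinocytes, 559.9 ± 334 in neutrophils and 426 ± 53.7 in T cells (SD, n = 3 each). Every keratinocyte library, at 26.0 to 35.1 TPM, lay below every library of the other groups, the lowest of which had 199.6 TPM.

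**Figure D2:**
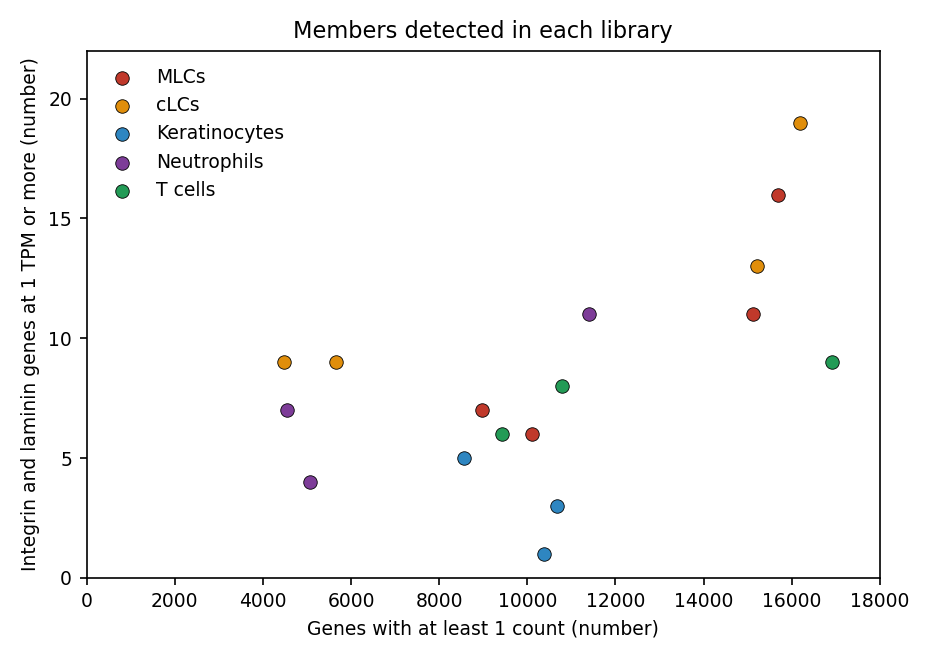
Number of members at 1 TPM or more (vertical axis) against the number of genes with a count (horizontal axis), 1 point per library, coloured by group. Keratinocyte libraries hold 1 to 5 members although they detect 8564 to 10683 genes, more than cLCs 3 and 4, which hold 9 members each.

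Outside keratinocytes, the leukocyte integrins carried most of the signal. In keratinocytes 1 to 3 they summed to 0.143, 0 and 2.27 TPM, and the integrins that bind RGD ligands to 34.9, 24.0 and 18.4 TPM. itgb2, the beta 2 chain shared by the leukocyte alpha chains, had 85.04, 151, 530.4 and 249.9 TPM in MLCs, 67.9, 42.5, 357 and 169 TPM in cLCs, 0.0942, 0 and 2.27 TPM in keratinocytes, 634, 173 and 369 TPM in neutrophils, and 123, 31.4 and 46.5 TPM in T cells. Every library outside keratinocytes stood at 31.4 TPM or more, and no keratinocyte library overlapped with any other. Group means ran from 392.1 ± 232 TPM in neutrophils (SD, n = 3) over 254 ± 196 TPM in MLCs and 159 ± 143 TPM in cLCs (SD, n = 4 each) to 67.0 ± 49.1 TPM in T cells and 0.787 ± 1.28 TPM in keratinocytes (SD, n = 3 each); neighbours in that order overlapped except T cells and keratinocytes. In the edgeR quasi-likelihood test with Benjamini-Hochberg adjustment over all genes, itgb2 was higher in MLCs than in keratinocytes by 8.24 ± 1.78 on the log2 scale (SE; adjusted p = 0.0152). It was also higher in cLCs than in keratinocytes by 7.07 ± 1.69 (edgeR adjusted p = 0.0212), and it was lower in keratinocytes than in neutrophils, with a log2 fold change of -8.42 ± 1.81 (edgeR adjusted p = 0.00915). T cells 1, the T cell library with the most itgb2, was also the one with neutrophil marker RNA, whose part in that level was not tested. Keratinocytes against T cells gave -5.64 ± 1.60 and did not pass (edgeR adjusted p = 0.0530). Without keratinocytes 1 or 2 the calls of MLCs (edgeR adjusted p = 0.0770 and 0.0609) and cLCs (0.0952 and 0.0788) against keratinocytes were lost.

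itgam was highest in MLCs. It is the gene of the alpha M chain that forms complement receptor 3 with beta 2 in mammals, and it had 26.1, 101, 234 and 135 TPM in MLCs, 1.93, 1.77, 0 and 0 TPM in cLCs, 0 TPM in every keratinocyte library, 0, 0 and 5.18 TPM in neutrophils, and 0 TPM in every T cell library. Every MLC library was above every other library of the study. The test of any difference among the 5 groups called it (edgeR adjusted p = 0.00498), and this call held when each of the 17 libraries was left out in turn. No single pair of groups passed: MLCs had at least 3868-fold more than keratinocytes (edgeR adjusted p = 0.0585) and at least 6295-fold more than T cells (edgeR adjusted p = 0.0632), both against a floor of 3 counts over the group, and against cLCs the log2 difference was 6.61 ± 2.48 (SE; edgeR adjusted p = 0.295). On log2(TPM + 1) with limma, itgam was called higher in MLCs against cLCs (adjusted p = 7.41e-05), keratinocytes (2.15e-05), neutrophils (0.000187) and T cells (2.70e-05). DESeq2 did not call it between MLCs and cLCs.

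A second alpha M gene, which the gene name table calls itgam.1 and which the deposited symbol si:dkey-32n7.4 keeps outside the members, had another spread. Its levels were 1.90, 1.73, 6.15 and 3.34 TPM in MLCs, 15.3, 4.21, 107 and 0 TPM in cLCs, 0.0148, 0 and 0 TPM in keratinocytes, 62.3, 3.14 and 33.2 TPM in neutrophils, and 0.970, 0 and 0 TPM in T cells. So itgam was the higher of this pair in all 4 MLC libraries, and itgam.1 was the higher in 3 of 4 cLC libraries and all 3 neutrophil libraries. Reads that match both genes could have been lost or split in counting, which was not tested.

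**Figure D3:**
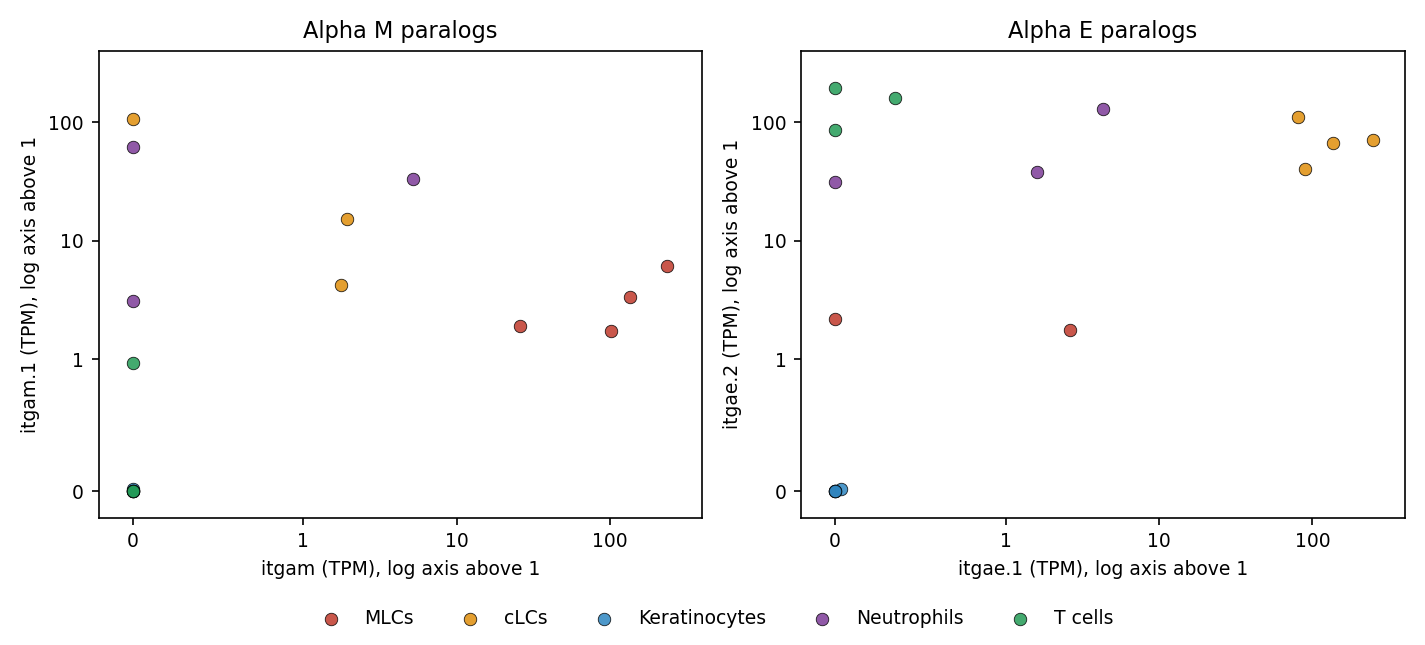
TPM of itgam.1 against itgam (left) and of itgae.2 against itgae.1 (right), 1 point per library, coloured by group, on axes that are linear below 1 and logarithmic above. MLCs lie to the right in the left panel, at 26.1 to 234 TPM of itgam, and the 4 cLC libraries alone are high for both alpha E genes.

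The alpha E genes, whose product binds E-cadherin on epithelial cells when paired with beta 7 in mammals, were abundant in cLCs and near 0 in MLCs. itgae.1 had 2.63, 0, 0 and 0 TPM in MLCs, 80.5, 247, 137 and 89.8 TPM in cLCs, 0.0315, 0 and 0 TPM in keratinocytes, 4.31, 1.60 and 0 TPM in neutrophils, and 0.351, 0 and 0 TPM in T cells. itgae.2 had 1.77, 2.20, 0 and 0 TPM in MLCs, 111, 70.6, 66.5 and 40.5 TPM in cLCs, 0.0170, 0 and 0 TPM in keratinocytes, 130.0, 37.8 and 31.1 TPM in neutrophils, and 160.0, 85.2 and 196 TPM in T cells. The cLC libraries thus held both genes, whereas neutrophils and T cells were high for itgae.2 and low for itgae.1. In the RefSeq order of genes itgae.1 and itgae.2 lie next to each other with 1 coding gene between them, so reads common to both may be miscounted.

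Against keratinocytes, both alpha E genes were called higher in cLCs. Keratinocytes held 1 count of each in all, so the ratio for itgae.1 was 11060 with a counting interval of 1985 to 436800 (95%, exact Poisson; edgeR adjusted p = 0.0396), and for itgae.2 it was 9356 with an interval of 1679 to 369500 (edgeR adjusted p = 0.00862). itgae.2 was also lower in keratinocytes than in neutrophils, by a ratio of 6100 (1095 to 240900; edgeR adjusted p = 0.00928), and lower than in T cells, by a ratio of 10980 (1971 to 433800; edgeR adjusted p = 0.00873). These last 2 calls held without any 1 library. The itgae.1 call was lost without cLCs 1 (edgeR adjusted p = 0.0670), cLCs 2 (0.118) or keratinocytes 1, 2 or 3 (0.122, 0.135 and 0.139), and the itgae.2 call of cLCs without keratinocytes 2 or 3 (0.0508 and 0.0504). MLCs against cLCs gave log2 fold changes of -8.00 ± 2.52 for itgae.1 and -6.06 ± 1.76 for itgae.2, with every MLC library below every cLC library, and neither passed the edgeR test (adjusted p = 0.216 and 0.188). DESeq2 called both, with adjusted p = 0.0135 for itgae.1 and 0.00173 for itgae.2.

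itgb7, the beta chain that pairs with alpha E and alpha 4 on lymphocytes in mammals, had 0, 1.24, 0 and 0 TPM in MLCs, 30.2, 41.996, 119.7 and 90.4 TPM in cLCs, 0 TPM in every keratinocyte library, 65.9, 0 and 49.6 TPM in neutrophils, and 115, 176 and 128 TPM in T cells. T cells and cLCs held it in every library, neutrophils in 2 of 3. It was at least 1398-fold higher in cLCs than in keratinocytes (edgeR adjusted p = 0.0337), at least 700-fold lower in keratinocytes than in neutrophils (edgeR adjusted p = 0.0356) and at least 2044-fold lower in keratinocytes than in T cells (edgeR adjusted p = 0.0307). Each of these 3 calls was lost without keratinocytes 1, 2 or 3, with edgeR adjusted p = 0.122, 0.110 and 0.114 against cLCs, 0.109, 0.0997 and 0.102 against neutrophils, and 0.106, 0.0932 and 0.101 against T cells. They were also lost without cLCs 1 or 2 (0.0553 and 0.0601), without cLCs 2 or neutrophils 1 or 3 (0.0504, 0.0580 and 0.0509), and without T cells 1, 2 or 3 (0.0630, 0.0642 and 0.0598), in that order of comparisons. MLCs lay below cLCs in every library (log2 fold change -7.16 ± 2.32, SE; edgeR adjusted p = 0.234) and below T cells in every library (-7.71 ± 2.41; edgeR adjusted p = 0.131).

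**Figure D4:**
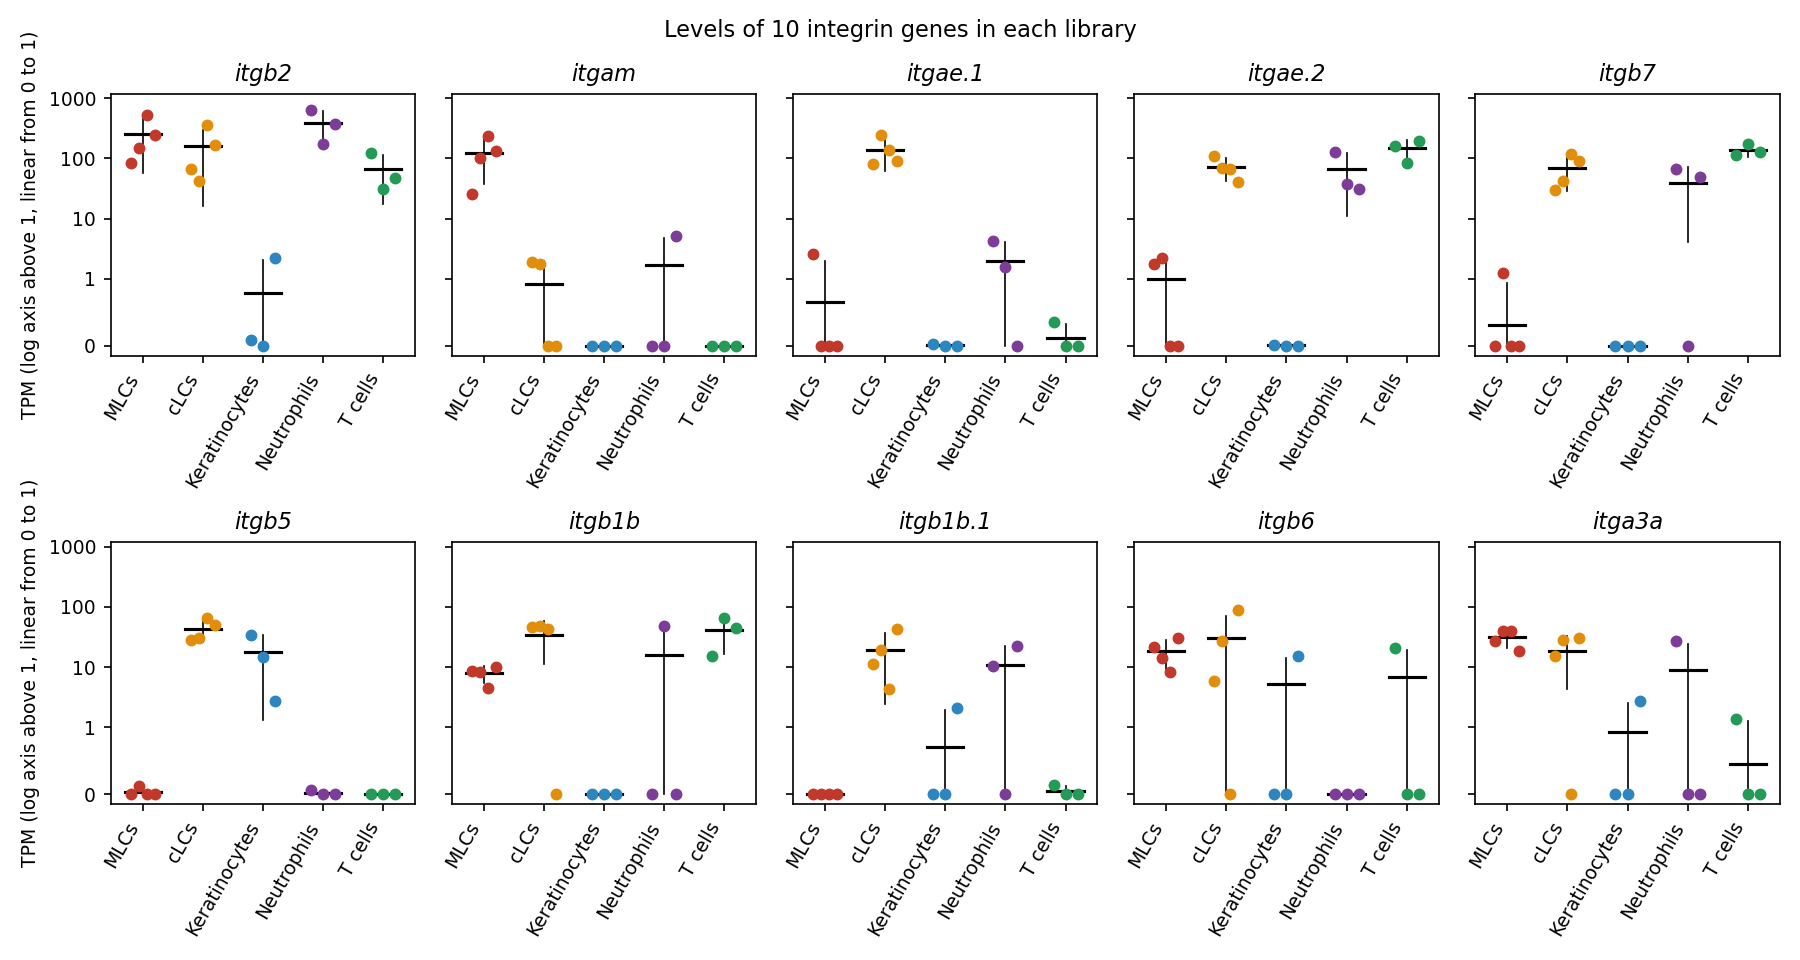
TPM in each library (points) of 10 integrin genes, 1 panel per gene, on an axis that is linear below 1 and logarithmic above, with groups in the order MLCs, cLCs, keratinocytes, neutrophils and T cells, a horizontal bar at the group mean and a vertical line of 1 SD each way. itgam is high in MLCs, itgae.1 in cLCs, itgb5 in cLCs and keratinocytes, and itgb2 in all groups but keratinocytes.

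Among the integrins that bind RGD ligands, itgb5, the beta 5 chain, differed among the groups. Its levels were 0, 0.126, 0 and 0 TPM in MLCs, 28.0, 30.2, 64.8 and 49.8 TPM in cLCs, 34.9, 14.95 and 2.79 TPM in keratinocytes, 0.0630, 0 and 0 TPM in neutrophils, and 0 TPM in every T cell library. It was the only member at 1 TPM or more in all 3 keratinocyte libraries, and every cLC and keratinocyte library was above every library of the other 3 groups. The test of any difference called it (edgeR adjusted p = 0.00239), as it did without each of the 17 libraries in turn. Keratinocytes held at least 855.2-fold more than T cells (edgeR adjusted p = 0.0307), a call lost without keratinocytes 1 or 2 (0.0821 and 0.0647) or T cells 1, 2 or 3 (0.119, 0.144 and 0.156). MLCs were lower than cLCs by a log2 fold change of -9.70 ± 2.51 (SE; edgeR adjusted p = 0.134) and lower than keratinocytes by -8.56 ± 2.43 (edgeR adjusted p = 0.0782), which DESeq2 called with adjusted p = 5.38e-07 and 2.10e-05. cLCs and keratinocytes overlapped (log2 fold change 1.13 ± 1.92; edgeR adjusted p = 0.851).

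The alpha V chain that pairs with beta 5 in mammals did not follow it. itgav had 3.19, 3.02, 4.23 and 0 TPM in MLCs, 24.1, 12.5, 3.98 and 0.188 TPM in cLCs, 0.0164, 9.04 and 0 TPM in keratinocytes, 9.25, 0 and 18.5 TPM in neutrophils, and 12.5, 2.14 and 30.7 TPM in T cells. Its groups all overlapped, and the test of any difference gave an edgeR adjusted p of 1.00. itgb6, whose product with alpha V activates latent TGF-beta in mammalian epithelia, had 21.95, 14.1, 8.33 and 30.1 TPM in MLCs, 5.99, 26.9, 0 and 89.2 TPM in cLCs, 0, 0 and 15.6 TPM in keratinocytes, 0 TPM in every neutrophil library, and 20.9, 0 and 0 TPM in T cells. MLCs alone held it in every library, and every MLC library was above every neutrophil library, but edgeR with the filter on low counts did not call it (any difference, adjusted p = 0.216). DESeq2 called it between neutrophils and each of the other 4 groups, of which keratinocytes and T cells held it in 1 library each. itgb3a, a beta 3 chain, had 0.109, 0, 0 and 0 TPM in MLCs, 4.72, 6.98, 0 and 48.8 TPM in cLCs, 0 TPM in every keratinocyte library, 4.43, 0 and 0 TPM in neutrophils, and 0.0439, 0 and 0 TPM in T cells, so cLCs 4 carried most of it. itga5, the fibronectin receptor chain, reached 13.3 TPM in cLCs 1, and itgb8 7.92 TPM in T cells 1. Neither exceeded 1 TPM elsewhere, and itgb3b reached 1.61 TPM in 1 library, and itga2b and itga8 stayed under 1 TPM.

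The beta 1 chain pairs with the largest set of alpha chains, and zebrafish carry several copies of its gene. itgb1b (ENSDARG00000104484) had 8.78, 8.34, 4.51 and 10.2 TPM in MLCs, 47.3, 48.4, 43.4 and 0 TPM in cLCs, 0 TPM in every keratinocyte library, 0, 48.4 and 0 TPM in neutrophils, and 15.4, 65.4 and 44.3 TPM in T cells. itgb1b.1 (ENSDARG00000053232), which follows it in the RefSeq gene order with itgb1b.2 between them, had 0 TPM in every MLC library, 11.2, 19.2, 4.36 and 43.6 TPM in cLCs, 0, 0 and 2.11 TPM in keratinocytes, 10.3, 0 and 22.8 TPM in neutrophils, and 0.139, 0 and 0 TPM in T cells. MLCs and T cells thus held itgb1b and little or no itgb1b.1, and in neutrophils and cLCs 4 a library held 1 of the 2 genes but not the other. These copies are close relatives, and reads that match several of them may have been assigned unevenly. The test of any difference called itgb1b.1 (edgeR adjusted p = 0.0370), with MLCs at least 1413-fold below cLCs (edgeR adjusted p = 0.168). That call was lost without MLCs 1, 2, 3 or 4 (0.0662, 0.0746, 0.0653 and 0.0679), cLCs 1, 2 or 4 (0.0560, 0.0882 and 0.0584) or T cells 2 or 3 (0.0558 and 0.0560). itgb1b was not called (any difference, edgeR adjusted p = 0.195). The identifier ENSDARG00000022689, which carries the symbols itgb1b.1 and itgb1b.2 at once, reached at most 1.85 TPM, in cLCs 1, and itgb1a reached 6.35 TPM there and under 1 TPM elsewhere.

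**Figure D5:**
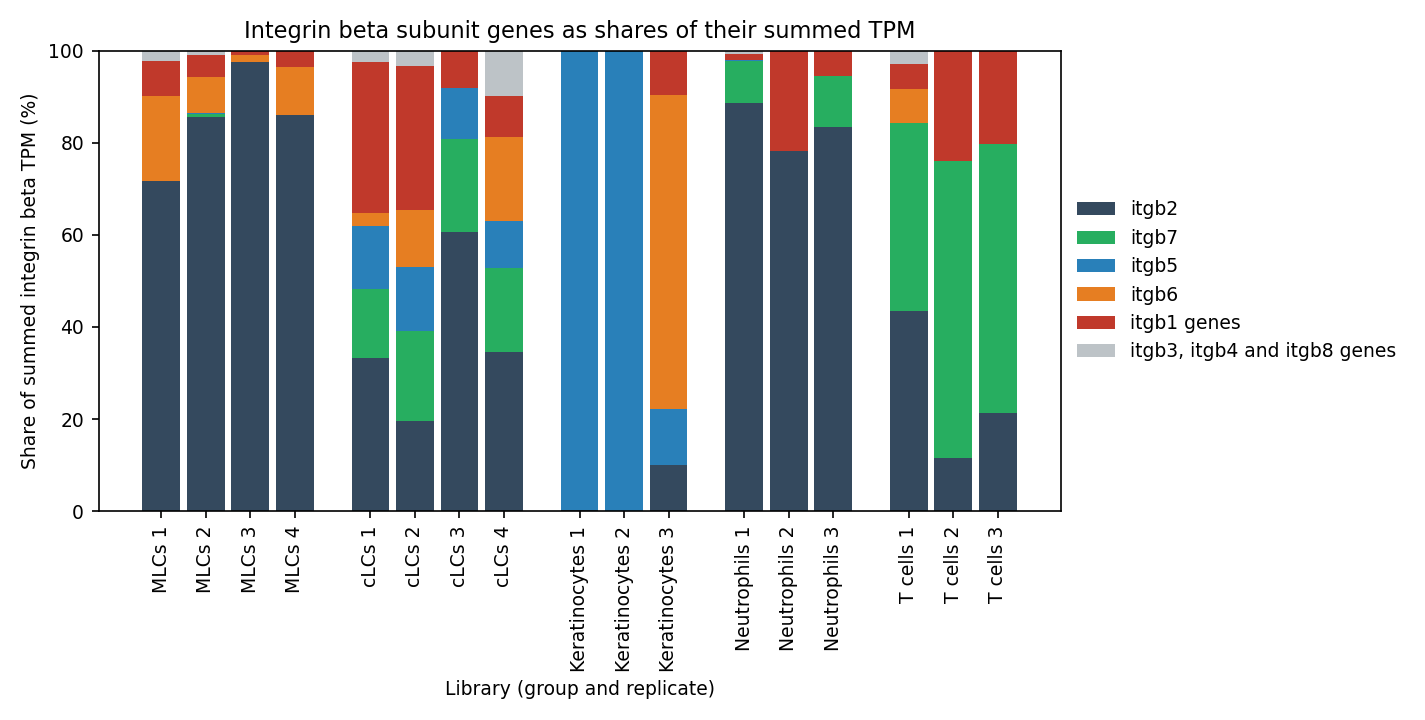
Share of the summed integrin beta TPM (vertical axis, %) taken by beta genes in each library (horizontal axis, by group), as stacked bars that start at 0. The itgb1 genes are pooled, and so are the itgb3, itgb4 and itgb8 genes. itgb2 takes 71.7% to 97.6% in MLCs and 78.1% to 88.7% in neutrophils. cLCs divide the sum among several genes, T cells mostly between itgb2, itgb7 and the itgb1 genes, and 2 of 3 keratinocyte libraries consist of itgb5.

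Set as shares of the summed beta TPM, which do not depend on how a library was scaled, itgb2 made up 85.3% ± 10.6 in MLCs, 37.0% ± 17.1 in cLCs (SD, n = 4 each), 3.40% ± 5.65 in keratinocytes, 83.4% ± 5.28 in neutrophils and 25.4% ± 16.4 in T cells (SD, n = 3 each). itgb7 made up 54.6% ± 12.4 in T cells and 18.2% ± 2.42 in cLCs, against 0.176% ± 0.352 in MLCs. itgb5 took 99.7% in keratinocytes 1 and the whole sum in keratinocytes 2, but 12.2% in keratinocytes 3, where itgb6 took 68.3%. On the alpha side, itgam made up 34.7% to 87.3% of the alpha sum in MLCs, itgae.1 28.7% to 66.0% in cLCs, and itgae.2 85.9% to 96.5% in T cells and 56.8% to 96.0% in neutrophils.

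Of the 6 genes of laminin-binding integrins, itga3a was the one at more than 10 TPM. It had 27.2, 40.0, 40.4 and 18.9 TPM in MLCs, 15.1, 28.4, 0 and 30.9 TPM in cLCs, 0, 0 and 2.79 TPM in keratinocytes, 27.2, 0 and 0 TPM in neutrophils, and 1.38, 0 and 0 TPM in T cells. Every MLC library was above every keratinocyte and T cell library, with log2 fold changes of 5.07 ± 3.13 and 6.80 ± 3.41 (SE) that edgeR did not call (adjusted p = 0.420 and 0.356) and that limma on log2(TPM + 1) did (adjusted p = 0.0309 and 0.0224). The alpha 6 and beta 4 chains of hemidesmosomes were almost absent. itga6b had 9.47 TPM in MLCs 1 and 0.0180 TPM in cLCs 2, and itgb4 had 2.62 TPM in MLCs 1 and 0.181 TPM in cLCs 1. Both were at 0 in the other libraries, which include all 3 of keratinocytes, where a count of 0 allows up to 0.0808 CPM (counts scaled to the library total) over the group. These 3 libraries also had 0 TPM of krtt1c19e, the gene of basal keratinocytes, so the absence is not shown for basal keratinocytes. MLCs 1 was also the MLC library with the most krt5 (960.1 TPM, against 102 to 128 TPM in MLCs 2 to 4). It had the most krt4 of its group (269 TPM) and was the one library with krtt1c19e (2.53 TPM). The rest of the keratinocyte list went the other way, as MLCs 1 had the least epcam (906 TPM) and cdh1 (232 TPM) of its group. The part of keratinocyte RNA in the itga6b and itgb4 of MLCs 1 was not tested. itga3b reached 8.08 TPM in cLCs 1 and under 0.5 TPM elsewhere, and itga6a at most 0.127 TPM.

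The alpha chains that bind collagen were low throughout. The highest of the 7 genes was itga1, with 7.88 TPM in neutrophils 1 and at most 1.56 TPM elsewhere. itga2.2 had 2.22 TPM in MLCs 1, itga2.3 1.096 and 1.06 TPM in MLCs 1 and 2, and itga10 1.16 TPM in MLCs 1, whereas itga11b stayed under 1 TPM and itga11a and itga2.1 had no count. itga4, whose product pairs with beta 1 and beta 7 to bind VCAM and fibronectin in mammals, had 0.159, 0, 0 and 0 TPM in MLCs, 25.1, 28.7, 0 and 0 TPM in cLCs, 0 TPM in every keratinocyte library, 23.6, 0 and 0 TPM in neutrophils, and 0.541, 0 and 0 TPM in T cells. Its 3 high values were in libraries with more than 6000 genes, and the 4 libraries below that number had 0 counts. MLCs 2 to 4, keratinocytes 1 to 3 and T cells 2 and 3, with more than 6000 genes each, also had 0 counts. The related itga9 reached 0.800 TPM at most.

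The 13 laminin genes together summed to 3.98 ± 2.62 TPM in MLCs, 15.7 ± 28.1 TPM in cLCs (SD, n = 4 each), 0.990 ± 1.02 TPM in keratinocytes, 1.28 ± 1.80 TPM in neutrophils and 3.71 ± 0.0948 TPM in T cells (SD, n = 3 each). lamc1, the gamma 1 chain of most laminins, had 2.09, 2.47, 0.818 and 2.69 TPM in MLCs, 1.503, 0.0985, 57.3 and 0 TPM in cLCs, 0, 1.21 and 0 TPM in keratinocytes, and 0 TPM in every neutrophil and T cell library. The cLC sum is thus mostly 1 gene in cLCs 3, and the low lamc1 of MLCs, present in 4 of 4 libraries, was the more even. MLCs had at least 196.6-fold more lamc1 than neutrophils (edgeR adjusted p = 0.162) and at least 187-fold more than T cells (edgeR adjusted p = 0.220), neither of which passed.

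lama5, the alpha chain of laminins in many adult basement membranes, had 0.470, 0.0527, 0 and 0 TPM in MLCs, 0.169, 0, 0.344 and 0 TPM in cLCs, 0, 0.105 and 0 TPM in keratinocytes, 0 TPM in every neutrophil library, and 0.982, 3.61 and 2.61 TPM in T cells. Every T cell library was above every library of the other groups, at a level that is low in absolute terms. Neutrophils were at least 237-fold below T cells, which edgeR did not call (adjusted p = 0.227) and DESeq2 did (adjusted p = 0.0248). lama3, an epidermal alpha chain, had 0.423 TPM in T cells 1 alone, and lamb3, an epidermal beta chain whose deposited symbol keeps it outside the members, 3 counts in MLCs 1. All keratinocyte libraries had 0 counts of both genes. Of the rest, lamb1b had 1.42 TPM in MLCs 1, 3.03 TPM in cLCs 1, 3.35 TPM in neutrophils 1 and 0.856 TPM in T cells 1. All of these are library 1 of their group, and lamb1b had at most 0.0184 TPM elsewhere. lama4 had 2.73 TPM in MLCs 4, lamb4 1.18 TPM in T cells 3, lama1 at most 0.940 TPM, and lamb1a, lamb2, lamb2l and lamc3 stayed under 1 TPM.

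For the comparisons over all genes, 19 members passed edgeR's filter on low counts among 15247 genes, and 27 did not and were not tested. In the test of any difference among the 5 groups, 7 of the 19 were called, namely itgb5, itgae.1, itgae.2, itgam, itgb2, itgb7 and itgb1b.1, while 16.0% of all tested genes were called. A member passes the filter through the group in which it is high, so this count is a description. All but the itgb1b.1 call held without each of the 17 libraries in turn, with edgeR adjusted p for the other 6 of 0.00239 (itgb5), 0.00370 (itgae.1), 0.00465 (itgae.2), 0.00498 (itgam), 0.0164 (itgb2) and 0.0185 (itgb7). DESeq2 called 7 members (18.3% of all genes), and limma on log2(TPM + 1) called 8 (31.4% of all genes).

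MLCs differed from cLCs in 0 members by edgeR without a replicate block, where 0.171% of all genes were called. With a block for the replicate number, edgeR called 5, but the share of all genes called in that fit is not given here. At an unadjusted p under 0.05 there were 8 such members, against 12.8% of all genes, and DESeq2 and limma each called 6, against 7.09% and 8.4% of all genes. Of the 6 called by DESeq2, itgb5, itgb7, itgae.1, itgae.2 and itgb1b.1 were also among the 6 of limma; DESeq2 added itgb3a and limma itgam. In TPM, 1 member (itgam) was higher in every MLC library than in every cLC library, where 3.48% of all identifiers were, and 5 (itgb5, itgae.1, itgae.2, itgb7 and itgb1b.1) were lower, where 1.3% of all identifiers were.

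Against keratinocytes, edgeR called 1 member in MLCs (itgb2, higher; 1.44% of all genes called higher, 1.91% in either direction) and 4 in cLCs (itgb2, itgb7, itgae.1 and itgae.2, all higher; 2.02% of all genes called higher, 3.37% in either direction). DESeq2 called 8 members in MLCs (13.6% of all genes) and 9 in cLCs (17.9%), and limma 4 in MLCs (12.6%) and 6 in cLCs (14.1%). Every MLC library was above every keratinocyte library for itga3a, itgam, itgb2 and itgb1b, which is 4 members beside 5.21% of all identifiers, and below for itgb5, 1 member beside 4.48%. For cLCs 5 members were above (itgae.1, itgae.2, itgb2, itgb7 and itgb1b.1), beside 2.28% of all identifiers, and 0 below, beside 4.95%. Both comparisons share the keratinocyte libraries. Without the 4 libraries that hold fewer than 6000 genes, edgeR called 5 members between MLCs and keratinocytes (5.37% of all genes in that fit), 7 between cLCs and keratinocytes (5.1%) and 1 between MLCs and cLCs (0.788%). Between MLCs and neutrophils edgeR called 0 members (1.9% of all genes). At an unadjusted p under 0.05 there were 9 (24.5% of all genes), by DESeq2 4 (17.8%) and by limma 2 (8.91%). Between MLCs and T cells it called 0 members (1.21% of all genes), with 4 at an unadjusted p under 0.05 (15.1%), 4 by DESeq2 (9.41%) and 4 by limma (13.8%).

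Between cLCs and neutrophils edgeR called 0 members (0.859% of all genes), with 5 at an unadjusted p under 0.05 (19.6%), 3 by DESeq2 (14.4%) and 2 by limma (4.81%). Between cLCs and T cells it called 0 (0.203% of all genes), with 6 at an unadjusted p under 0.05 (13.4%), 5 by DESeq2 (7.61%) and 4 by limma (14.9%). Keratinocytes were lower than neutrophils in 3 members, itgb2, itgb7 and itgae.2, where 1.85% of all genes were called lower and 4.85% in either direction. DESeq2 called 9 members there (25.5% of all genes) and limma 4 (14.2%). Against T cells, keratinocytes were higher in 1 member, itgb5, and lower in 2, itgb7 and itgae.2, where 1.76% of all genes were called higher, 1.57% lower and 3.33% in either direction. DESeq2 called 7 members there (18.7% of all genes) and limma 5 (20.7%). Neutrophils and T cells differed in 0 members by edgeR (0.105% of all genes), with 4 at an unadjusted p under 0.05 (19.8%), 4 by DESeq2 (13.3%) and 0 by limma (11.7%).

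Genes that act with the integrins were counted from 4 lists that hold no member. These lists were chosen with earlier results of these data known, and a gene passes the filter through the group in which it is high. The counts and medians of the lists are thus a description. Of 30 genes of integrin activation and focal adhesions, 22 were tested. In MLCs 6 rose over keratinocytes (tln1, parvg, apbb1ip, fermt3b, zyx and pxna), where 1.44% of all genes were called higher. The median log2 fold change was 3.91 over the list against 0.30 over all genes. The same 6 symbols rose in cLCs over keratinocytes (2.02% of all genes called higher), with a median of 4.86 against 0.26. tln1, the talin that links beta chains to actin, averaged 25.6 ± 14.6 TPM in MLCs (SD, n = 4) and 0 in every keratinocyte library, which is at least 1970-fold higher (edgeR adjusted p = 0.000459). parvg, a parvin found in leukocytes of mammals, averaged 128 ± 34.8 TPM in MLCs and 0 in every keratinocyte library, at least 1714-fold higher (edgeR adjusted p = 0.000636). In cLCs tln1 was at least 2324-fold (edgeR adjusted p = 0.000432) and parvg at least 1842-fold higher than in keratinocytes (edgeR adjusted p = 0.000581). The tln1, parvg and apbb1ip calls against keratinocytes held without each of the 17 libraries. Those of fermt3b, zyx and pxna held in 14, 13 and 10 of the 17 for MLCs and in 15, 3 and 12 for cLCs. Many of these fits dropped a library of a group outside the comparison. For MLCs the calls of all 3 genes were lost without keratinocytes 1, 2 or 3. For cLCs those of zyx and pxna were lost likewise, and that of fermt3b without keratinocytes 2 or 3. The highest edgeR adjusted p of these 3 genes was 0.128 for MLCs (pxna, without keratinocytes 2) and 0.190 for cLCs (zyx, without keratinocytes 1). Any difference among the 5 groups was called for 10 of the 22, beside 16.0% of all genes. Between MLCs and cLCs, edgeR called 0 of the 22 (0.171% of all genes), with 1 at an unadjusted p under 0.05 (12.8%). DESeq2 called 0 (7.09%) and limma 4 (8.4%). The median was -0.0013 against 0.13 over all genes.

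Among the integrin ligands, 20 genes of which 4 were tested, cdh1 was the one called between pairs of groups. The test of any difference called 2 of the 4, cdh1 and fn1a, beside 16.0% of all genes. fn1a, a fibronectin gene (edgeR adjusted p = 0.00733), had 61.0 and 7.70 TPM in cLCs 1 and 3 and at most 0.158 TPM elsewhere. It was tested in 14 of the 17 fits that left out 1 library and was called in those 14. cdh1 encodes E-cadherin, the ligand of alpha E beta 7 in mammals, and averaged 326 ± 109 TPM in MLCs, 2.16 ± 1.83 TPM in cLCs (SD, n = 4 each), 361 ± 72.9 TPM in keratinocytes, 0 in every neutrophil library and 0.0248 ± 0.0430 TPM in T cells (SD, n = 3 each). It rose in MLCs over cLCs by 6.92 ± 1.42 on the log2 scale (SE; edgeR adjusted p = 0.0482) and fell in cLCs against keratinocytes, with a log2 fold change of -7.01 ± 1.44 (edgeR adjusted p = 0.00921). The first call was lost without MLCs 1, 2, 3 or 4 (edgeR adjusted p = 0.0768, 0.154, 0.131 and 0.163) or cLCs 1, 3 or 4 (0.191, 0.129 and 0.0562); the second held without each of the 17. So the libraries with abundant cdh1 (MLCs and keratinocytes) had at most 2.63 TPM of either alpha E gene and at most 1.24 TPM of itgb7, and the libraries high for those genes had at most 4.54 TPM of cdh1.

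Of 11 hemidesmosome genes, 7 were tested. None was called by edgeR between MLCs and cLCs (0.171% of all genes) or MLCs and keratinocytes (1.91%). At an unadjusted p under 0.05 there were 2 in the first pair (12.8% of all genes) and 3 in the second, for which that share is not given here. DESeq2 called 1 (7.09%) and 0 (13.6%), and limma 3 (8.4%) and 4 (12.6%), in that order. By edgeR 2 fell in cLCs against keratinocytes, beside 3.37% of all genes called in either direction. These were evpla, an envoplakin of the epidermal envelope, with 0.282 ± 0.519 TPM in cLCs (SD, n = 4) and 290.0 ± 133 TPM in keratinocytes (SD, n = 3; edgeR adjusted p = 0.0159), and krt5, with 5.32 ± 8.92 and 8243 ± 7621 TPM (edgeR adjusted p = 0.0314). The evpla call was lost without cLCs 2 (0.0585) and the krt5 call without cLCs 2, 3 or 4 (0.0985, 0.0631 and 0.0777). Both are keratinocyte genes that the list holds beside genes of the junction itself. Of these, the plectin genes plecb and pleca had 90.2, 23.5 and 31.1 TPM and 42.5, 8.82 and 18.3 TPM in keratinocytes 1 to 3, col17a1b had 2.70 TPM in keratinocytes 1 and cd151l 12.7 TPM in keratinocytes 2, and col17a1a, cd151 and dst had 0 counts in all 3. Any difference among groups was called for 4 of the 7 (evpla, krt5, ppl and pleca), beside 16.0% of all genes. Of 24 other basement membrane genes 6 were tested, and 0 were called by edgeR in any of the 10 pairs of groups (0.105% to 4.85% of all genes). At an unadjusted p under 0.05 there were 0 to 4, beside 12.8% to 24.5% of all genes in the pairs for which that share is given. DESeq2 called 0 to 2 (7.09% to 25.5% of all genes) and limma 0 to 2 (4.81% to 20.7%). The test of any difference called 2 of the 6, beside 16.0% of all genes. They were nid2b, a nidogen (edgeR adjusted p = 0.0358), and bcam, a laminin-binding surface protein in mammals (edgeR adjusted p = 0.0427). These calls held in 12 and 4 of the 17 fits that left out 1 library.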

How the data were processed

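Cells of 5 epidermal populations of adult zebrafish gave 17 libraries, with 2 reads of 150 bases per fragment per the labels. The submitters' processing notes name STAR, featureCounts and the build danRer10. The versions of those tools, the gene models and the strandedness of counting were not given in the sources used here. The authors deposited a table of raw read counts per Ensembl gene and a table of TPM, which the authors scaled for gene length and library. Each holds 35572 lines, of which 455 repeat an identifier, and all 46 members were found in the gene name table. Symbols are those of the deposited tables.

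The counts went into edgeR 4.0.16 under R 4.3.3 (TMM factors, filter on low counts by group, quasi-likelihood fit of all 17 libraries with 1 mean per group), called at a Benjamini-Hochberg adjusted p under 0.05 over 15247 genes. The biological coefficient of variation common to all genes was 2.02, at 12 residual degrees of freedom. The procedure was tested on simulated data in which only genes above a set mean level were changed. No statement here rests on its outcome. TPM levels are means ± SD, and TPM were also tested with limma 3.58.1 on log2(TPM + 1), a scale that understates changes of low genes, and counts with DESeq2 1.42.0. Against a group at 0, a fold is a lower bound at 3 counts over the group, which is 0.0593 CPM in MLCs, 0.0548 in cLCs, 0.0808 in keratinocytes, 0.0473 in neutrophils and 0.0496 in T cells. Against 1 to 3 counts a ratio has an exact Poisson interval of 95%. Floors and intervals cover counting error only, since PCR copies without molecular identifiers are counted as separate reads, and p-values measure the spread between these libraries.

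Named members are those called in any comparison and the 3 with the highest group mean TPM in each role. Of the lists, the 2 genes with the smallest adjusted p per direction were named for MLCs against cLCs and keratinocytes and for cLCs against keratinocytes. itgam.1, lamb3 and the other genes given with values were named after their values were seen. The members, the roles and the lists were chosen with earlier results of these data known. Alternatives were another scaling, other filters, tools and pseudocounts, a block for the replicate number, fits of 2 groups, and leaving out each library. The order of neighbouring genes came from the RefSeq annotation of the assembly GRCz12tu, which is not the build of the counts. Genome sequence and coordinates were not used here, and the values of 1 member are not reported here.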

Additional observations from a re-analysis of the deposited data

Results flagged for a closer look

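In groups of 4 libraries, 36 sets of values were tested for 1 library far from the other 3 by Dixon's 95% criterion, and 13 passed. Chance flags about 1 in 20 where values vary smoothly, but in 6 of the 13 the other 3 libraries were at 0 TPM, so that any value above 0 passes, and that rate does not apply. In MLCs, library 1 was far above the other 3 for itga2.2 (2.22 TPM), lamb1b (1.42 TPM), itga6b (9.47 TPM) and itgae.1 (2.63 TPM). It is the shallowest library of the study, with 5837662 counts, and has the most genes with a count in its group. MLCs 4 was far above for lama4 (2.73 TPM) and MLCs 2 for itgb7 (1.24 TPM). In cLCs, library 1 was far above for lamb1b (3.03 TPM), itga3b (8.08 TPM) and itgb1a (6.35 TPM), and library 4 for itgb3a (48.8 TPM). Library 4 was the lowest for itgb1b, at 0 TPM beside 43.4 to 48.4 TPM. cLCs 3 was far above for lamc1 (57.3 TPM), which also sets the summed laminin TPM of that library apart (57.7 TPM). Without cLCs 3 the mean of lamc1 in cLCs rests on 1.503, 0.0985 and 0 TPM.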

How the results depend on the processing

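The 18 member calls were recomputed 478 times under the alternatives. The call held in 434, was lost in 44 and reversed in 0. Leaving out 1 library made up 306 of the 478, of which 264 held and 42 were lost. For a call between 2 groups, many of these fits dropped a library of another group. That leaves the values of the 2 groups as they were, so the pooled count overstates how well such calls stand. With RLE in place of TMM factors, the median of all genes moved by more than 0.1 on the log2 scale in 5 comparisons (-0.226 for MLCs and -0.263 for cLCs against keratinocytes, 0.256 for keratinocytes against T cells, 0.132 for neutrophils against T cells, -0.109 for cLCs against neutrophils), and 1 of 190 member values changed sign, the uncalled itgam between cLCs and neutrophils.

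Counts of members called moved more, and the cause was not tested. The share of all genes called is not given beside the counts below, so they describe the processing and not the members. For MLCs against cLCs (0 by edgeR), DESeq2 and limma at log2(TPM + 1), with or without a filter on low TPM, or at log2(TPM + 0.1) gave 6, no filter on counts 4, and fits of only the 2 groups or without the 4 libraries under 6000 genes (chosen once the data had been seen) 1. For MLCs against keratinocytes (1), the counts were 8 by DESeq2, 4 by limma at + 1, 3 by limma at + 0.1 or unfiltered, 3 with no filter on counts, 2 with at least 10 CPM in 3 libraries, 3 in the fit of 2 groups and 5 without the 4 libraries. For MLCs against neutrophils (0), they were 4 by DESeq2, 2 by each limma fit and with no filter, and 1 in the other fits that moved. For MLCs against T cells (0), they were 4 by DESeq2 and limma at + 1, 3 at + 0.1, 5 unfiltered, 3 with no filter on counts, 1 at 10 CPM, and 3 in the fit of 2 groups and without the 4 libraries. cLCs gave 9 by DESeq2 and 7 without the 4 libraries against keratinocytes (4), 3 by DESeq2, 2 by each limma fit and 1 with no filter against neutrophils (0), and 5 by DESeq2, 4 by limma at + 1 and unfiltered, 3 at + 0.1, 3 with no filter or without the 4 libraries and 1 in the fit of 2 groups against T cells (0). Keratinocytes gave 9 by DESeq2 and 5 with no filter against neutrophils (3), and 7 by DESeq2, 5 by limma at + 1 and + 0.1, 6 unfiltered and 5 without the 4 libraries against T cells (3). Neutrophils against T cells (0) gave 4 by DESeq2 and 1 by unfiltered limma, and any difference among 5 groups (7) gave 15 with no filter.

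Over all groups, replicate numbers were not shown to pair libraries. The correlation of deviations from group means over 31 same-number pairs ran from -0.0436 to 0.176 (median 0.0102), with 2 above 0.1. Over 84 different-number pairs it ran from -0.1012 to 0.1095 (median -0.006), with 1 above 0.1. The 2 same-number pairs above 0.1 both joined MLCs to cLCs. Same-number pairs of these 2 groups had 0.176, 0.105, 0.0323 and 0.0434 for replicates 1 to 4. Whether MLCs and cLCs of 1 number share an experiment was not tested. Library 1 had the most genes with a count in MLCs (15684), cLCs (16200), neutrophils (11404) and T cells (16921). Keratinocytes 1 did not, with 10382 against 10683 in keratinocytes 2. What the first libraries have in common was not tested. Of 17 libraries, 7 correlated best with their own number. With the replicate block, the members called were 5 for MLCs against cLCs, 2 against keratinocytes, 0 against neutrophils and 3 against T cells, 1 for cLCs against neutrophils and 3 against T cells, and the other counts stayed within 1.5 times. The shares of all genes called in the blocked fit are not given here.

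Leaving out 1 library gave 0 to 0 members for MLCs against cLCs, 0 to 2 against keratinocytes, 0 to 0 against neutrophils and 0 to 1 against T cells. It gave 0 to 4 for cLCs against keratinocytes, 0 to 0 against neutrophils and 0 to 1 against T cells, 2 to 4 for keratinocytes against neutrophils and 1 to 4 against T cells, 0 to 0 for neutrophils against T cells, and 6 to 9 for any difference. The shares of all genes called in these fits are not given here. Members at 1 TPM in every library were 5 to 6 in MLCs, 6 to 9 in cLCs, 1 to 1 in keratinocytes, 2 to 5 in neutrophils and 5 to 6 in T cells, and at 5 TPM keratinocytes had 0.

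The 4 libraries under 6000 genes limit statements on genes at 0 there, and the number of libraries limits the tests.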
